A study of Mus musculus with 36 samples.

Results

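The response of cultured mouse cortical neurons to KCl depolarisation for 6 h was examined by mRNA-sequencing. The members were the 2 KCl 6 h libraries and the 6 libraries of unstimulated controls, chosen by their column labels, which makes 8 of the 18 RNA libraries and of 36 RNA and ATAC libraries in the series. Neurons came from cortices of CD-1 mouse embryos at embryonic day 15, pooled over all embryos of a dissection, and were grown for 7 days in vitro. They were silenced beforehand (2 h of 100 µM AP-5, which blocks NMDA receptors, and of 1 µM TTX, which blocks voltage-gated sodium channels). KCl neurons then received 55 mM KCl for 6 h. Controls received no stimulus and stayed in AP-5 and TTX for 3, 8 or 12 h in all, to match the times of 1, 6 and 10 h, with 2 libraries per time. For direct comparisons the libraries of BDNF at 6 h (10 ng/ml brain-derived neurotrophic factor) and of KCl at 1 h and at 10 h were used, 2 each, from neurons silenced in the same way. KCl depolarises every cell of the dish, glia included, and a depolarisation buffer without KCl is not described for the controls, so the buffer and the depolarisation cannot be told apart. Because the controls were kept in AP-5 and TTX, the contrast sets depolarised neurons against silenced neurons, not against spontaneously active ones. The paper adds the KCl buffer straight to the culture medium and describes no removal of AP-5 and TTX. Whether KCl and BDNF neurons also stayed in both is therefore not known.

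As background, raising extracellular potassium depolarises neurons and opens voltage-gated calcium channels, chiefly of the L type. Calcium acts through calmodulin-dependent kinases, the MAP kinase cascade and calcineurin on transcription factors that are already in the nucleus, such as CREB, SRF and MEF2. These switch on early genes within minutes, many of which encode transcription factors themselves (Fos, Egr, Nr4a and Npas4 families), and those factors act on late genes for secreted peptides, neurotrophins, ion channels and synapse proteins. In cortical neurons the late genes are known for adjusting inhibition, excitability and the peptide content of secretory granules.

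The CRE (cAMP response element) is the DNA motif that CREB binds, and it reads TGACGTCA in full, with the core TGACG on either strand. The promoters of 6 genes whose RNA was higher at KCl 6 h are printed to show where these letters lie, from 250 bases before to 50 bases after the RefSeq start (build GRCm38.p6, read 5′ to 3′ on the strand of the gene). They were chosen after their values were seen, as 2 early transcription factors and 4 genes of peptide precursors and their processing. Those 4 are the only tested genes of that kind called higher in which a full CRE was found, so its presence in them is no result. Capitals mark each TGACG or its reverse complement CGTCA.

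Fos promoter, chr12:85473640-85473939, + strand: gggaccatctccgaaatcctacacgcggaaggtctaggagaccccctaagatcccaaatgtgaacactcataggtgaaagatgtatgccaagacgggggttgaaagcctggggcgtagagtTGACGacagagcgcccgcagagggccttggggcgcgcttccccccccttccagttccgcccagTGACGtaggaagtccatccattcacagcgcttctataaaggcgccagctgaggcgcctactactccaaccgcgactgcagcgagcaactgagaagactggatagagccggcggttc
Nr4a1 promoter, chr15:101266596-101266895, + strand: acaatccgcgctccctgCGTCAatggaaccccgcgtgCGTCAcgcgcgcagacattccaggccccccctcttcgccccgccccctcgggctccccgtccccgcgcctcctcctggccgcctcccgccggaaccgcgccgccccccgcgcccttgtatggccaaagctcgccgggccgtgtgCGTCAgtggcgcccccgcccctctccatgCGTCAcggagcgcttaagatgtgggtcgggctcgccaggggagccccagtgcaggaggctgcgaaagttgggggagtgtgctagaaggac
Pcsk1 promoter, chr13:75089607-75089906, + strand: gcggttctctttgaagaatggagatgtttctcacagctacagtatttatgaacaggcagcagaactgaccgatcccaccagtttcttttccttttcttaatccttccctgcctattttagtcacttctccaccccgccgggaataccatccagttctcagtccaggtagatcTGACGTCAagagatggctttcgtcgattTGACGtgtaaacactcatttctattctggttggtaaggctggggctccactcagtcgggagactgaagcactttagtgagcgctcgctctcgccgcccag
Cartpt promoter, chr13:99900634-99900933, - strand: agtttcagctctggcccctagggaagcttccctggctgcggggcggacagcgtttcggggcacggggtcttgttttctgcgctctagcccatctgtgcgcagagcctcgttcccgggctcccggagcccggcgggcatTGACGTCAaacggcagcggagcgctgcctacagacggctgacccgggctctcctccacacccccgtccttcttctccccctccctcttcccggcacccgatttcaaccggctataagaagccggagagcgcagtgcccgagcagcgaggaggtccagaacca
Scg2 promoter, chr1:79439977-79440276, - strand: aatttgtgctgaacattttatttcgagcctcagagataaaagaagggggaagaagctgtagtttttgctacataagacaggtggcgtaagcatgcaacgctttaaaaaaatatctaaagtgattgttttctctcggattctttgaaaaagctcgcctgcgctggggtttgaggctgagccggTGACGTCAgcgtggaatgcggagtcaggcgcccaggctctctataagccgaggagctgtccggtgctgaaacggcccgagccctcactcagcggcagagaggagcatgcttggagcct
Sst promoter, chr16:23890795-23891094, - strand: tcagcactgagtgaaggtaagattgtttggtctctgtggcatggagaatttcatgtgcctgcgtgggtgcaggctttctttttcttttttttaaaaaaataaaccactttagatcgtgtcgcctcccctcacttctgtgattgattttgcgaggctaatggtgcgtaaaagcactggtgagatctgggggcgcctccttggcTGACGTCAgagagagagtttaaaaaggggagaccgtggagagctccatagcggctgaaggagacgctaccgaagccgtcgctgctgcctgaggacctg

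The full CRE was found in Pcsk1 (starting 78 bases before the RefSeq start), Cartpt (112), Scg2 (68) and Sst (48). Fos held the core at 129 and 66 bases before the start, and Nr4a1 held it at 4 places, with no full CRE in either. The RefSeq table, with chromosome 18 left out, gave 32851 promoters of the same length. Of these, 20.8% held the core on at least 1 strand and 1.79% held the full CRE. Of 28 genes of peptide precursors and peptide processing that were tested, 22 had an entry among these promoters, and 5 of these held a full CRE (Cartpt, Chgb, Pcsk1, Scg2 and Sst). Of the 17 with an entry that were called higher 4 held it, and of the 5 not called higher 1 did (Chgb). Crh and Vgf had no entry. A match describes letters in this window and no binding was measured.

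RNA values were normalised read counts, namely reads per gene divided by the size factor of each library. KCl 6 h libraries A and B held 13.3 and 11.5 M (mega) reads and controls 9.75 to 36.7 M (median 11.2). Of 26709 genes listed, 16209 had a mean of at least 10 normalised reads over the 18 libraries and were tested. The KCl 6 h libraries agreed least of the 9 replicate pairs, with Pearson's r of 0.985 across genes (0.989 to 0.994 in the others), a median difference of 0.217 on the log2 scale (0.0998 to 0.157) and 478 genes (2.95%) at least 2-fold apart. With 2 libraries, values of A and B are therefore given separately for the genes described in most detail. Log2 fold changes are differences of mean log2(normalised count + 1), given with their standard error (SE), and genes were called at a limma adjusted p below 0.1.

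At 6 h of KCl, 5417 of 16209 genes (33.4%) were called higher than controls and 5362 (33.1%) lower. Without KCl library A the counts were 4934 and 5063, and without library B 4793 and 4723. Counts of list members given below are to be read beside the shares over all genes, since several lists lie near them. Most changes were small. Over the called genes, the median size of the change was 0.55 on the log2 scale. Changes of at least 2-fold were called for 737 genes higher (4.55%) and 1365 lower (8.42%), and 135 genes in each direction passed 4-fold. Past 8-fold there were 37 genes higher and 14 lower. Both KCl libraries lay outside the range of the 6 controls for 9660 genes (59.6%). The median log2 fold change over all genes was 0.0075. Genes at least 2-fold lower had more reads in controls (median of the control means 102) than those at least 2-fold higher (60.5), and both were below all genes tested (291). Control levels enter both the fold change and the filter, so the order of the first 2 can follow from how the genes were picked.

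The largest rises were those of early transcription factors, of secreted factors with the enzyme that cuts their precursors, and of matrix proteins. Fos, a subunit of the AP-1 factor, lies at chr12:85473890-85477273 (mm10). It had 1727 and 1809 normalised reads in KCl libraries A and B, against 25.1, 33.3 and 43.3 as the lowest, median and highest of the 6 controls. Both KCl libraries thus stood far above every control, with a log2 fold change of 5.66 ± 0.15 (SE, adjusted p = 2.8e-16). Fosb, a related AP-1 subunit (chr7:19302696-19310051), had 344 and 360.0 against 4.93, 6.40 and 10.8, again without overlap, and a change of 5.50 ± 0.22 (SE, adjusted p = 2.3e-14). Nr4a1, an orphan nuclear receptor (chr15:101254269-101274795), had 1684 and 1681 against 50.9, 55.9 and 64.4 and a change of 4.88 ± 0.11 (SE, adjusted p = 1.7e-18). Its KCl libraries were nearly equal. Npas4, a factor that is switched on by calcium entry in neurons, had 1908 and 1735 against 60.1, 90.5 and 114 (4.40 ± 0.27 SE, adjusted p = 1.4e-08). Egr4, a zinc finger early gene, had 102 and 85.7 against 1.04, 3.45 and 10.2 (4.24 ± 0.49 SE, adjusted p = 5.1e-06), with the lowest controls near the limit of detection.

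Bdnf, a neurotrophin (chr2:109674700-109727007), had 1704 and 1721 normalised reads at KCl 6 h and 38.5, 62.5 and 65.1 in controls. Its change was 4.86 ± 0.19 (SE, adjusted p = 4.1e-13), and the lowest control lay apart from the other 5. Pcsk1, the prohormone convertase that cuts peptide precursors in secretory granules, had 575 and 511 against 16.6, 20.1 and 31.9 (4.63 ± 0.24 SE, adjusted p = 2.8e-12). Vgf, a granule protein and peptide precursor, had 6736 and 5310.1 against 251, 346 and 481 (4.10 ± 0.29 SE, adjusted p = 1.8e-07). Crh, which encodes corticotropin-releasing hormone, had 97.3 and 64.8 against 0, 2.30 and 3.92 (4.85 ± 0.79 SE, adjusted p = 9.8e-05), a rise from near 0 that came to 2.89 with 10 in place of 1 added before the logarithm.

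Acan, which encodes the perineuronal net proteoglycan aggrecan, had 470.0 and 258 against 7.26, 12.9 and 20.4 (4.64 ± 0.29 SE, adjusted p = 5e-11), and library A was well above B. Col10a1, a collagen chain best known from cartilage, had 69.8 and 42.8 against 0, 0.548 and 1.31 (5.24 ± 0.50 SE, adjusted p = 1.2e-08), and C2cd4a had 45.2 and 57.9 against 1.96, 2.24 and 2.96 (3.98 ± 0.41 SE, adjusted p = 2.8e-08). Controls were near 0 for both, and with 10 added the changes were 2.62 and 2.31. In every one of these 12 genes the KCl libraries were above all controls, which was part of the rule that named them. Where controls were near 0, the KCl levels also counted in the filter of a mean of at least 10.

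**Figure D1:**
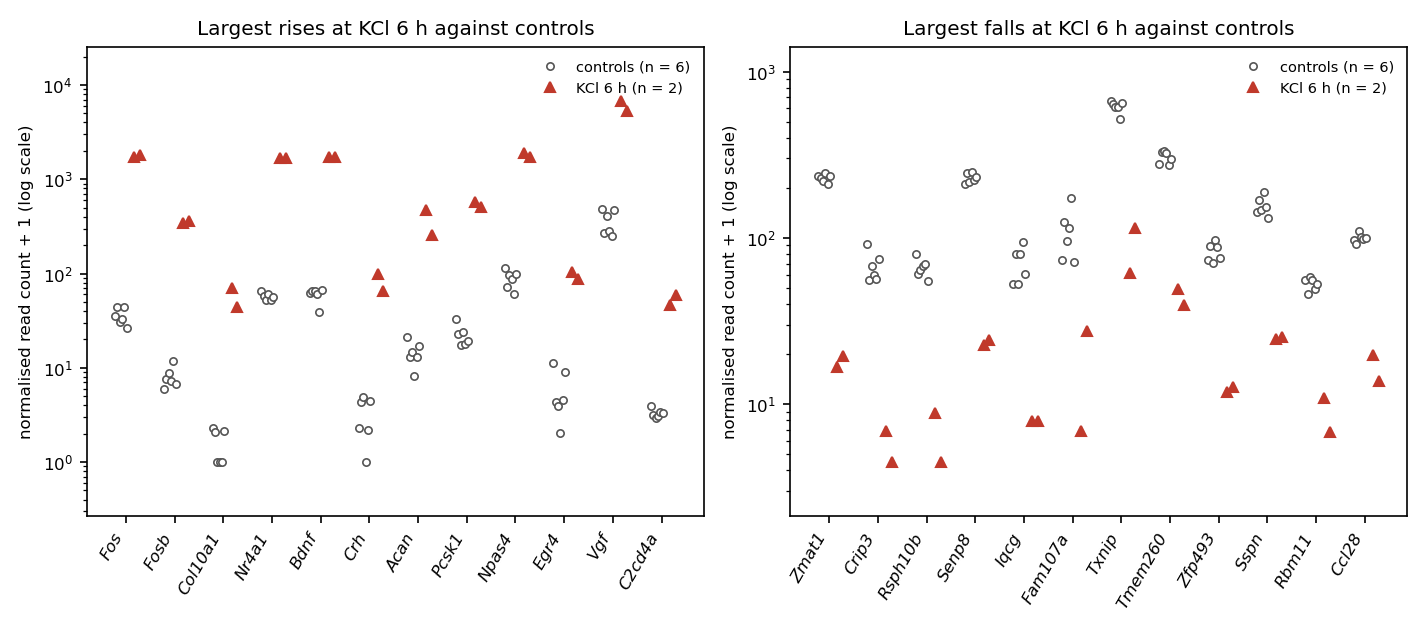
Normalised read count + 1 (log scale) of the 12 genes with the largest rises (left) and the 12 with the largest falls (right) at KCl 6 h, with 1 circle per control library (n = 6) and 1 triangle per KCl 6 h library (A left, B right). Fos rises from 25.1 to 43.3 reads in controls to 1727 and 1809, and Zmat1 falls from 210.3 to 245 reads to 15.7 and 18.5.

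Among AP-1 subunits and their small Maf partners, 9 of 12 members were called higher (6 by at least 2-fold) and 2 lower (0), with a median log2 fold change of 0.98. Beside Fos and Fosb, the rises were led by Maff (3.17), Junb (2.95) and Fosl2 (1.58). The members that fell were Jun (-0.59) and Fosl1 (-0.55), so subunits of the same dimeric factor moved in opposite directions, and Jund (0.17) was not called. Of the other early response factors, 17 of 22 members were called higher (12 by at least 2-fold) and 3 lower (1), with a median log2 fold change of 1.20. The nuclear receptors Nr4a3 (2.57) and Nr4a2 (2.50), the zinc finger factors Egr3 (1.81) and Egr2 (1.18), and Arc, a synaptic protein of early response kind (1.62), were higher. Egr1, an early gene that is abundant in cortex, was only 0.37 higher. Klf2 (-2.00), Klf10 (-0.83) and Ier5 (-0.41) were lower. The change of Klf2 was -1.16 without library B and -0.885 with 10 in place of 1 added before the logarithm.

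In the CREB family and its partners, 10 of 17 members were called higher (5 by at least 2-fold) and 3 lower (0), with a median log2 fold change of 0.40. The highest were Crem (2.33 ± 0.13 SE, adjusted p = 2e-12), whose locus also encodes the inducible repressor ICER, and the salt-inducible kinases Sik3 (1.71), Sik1 (1.39) and Sik2 (1.00), which hold the CREB coactivators Crtc in the cytoplasm. Crtc1 (-0.55) and Crtc3 (-0.41) were lower and Crtc2 (0.40) higher. Creb1 itself was not called (-0.11, adjusted p = 0.122). Genes of the circadian clock and the PAR bZIP factors counted 11 higher and 4 lower of 17, median 0.34. Nfil3, a repressor of the PAR bZIP targets, was higher by 2.27 ± 0.10, and Per1, a clock gene with known CRE control, by 2.23 ± 0.094. Npas2 (1.39) and Per2 (1.11) were higher, while Per3 (-1.35) and Dbp (-0.99) were lower.

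Factors that define cortical neuron types gave 11 higher (45.8%) and 7 lower (29.2%) of 24, median 0.056, against 33.4% and 33.1% of all genes. The deep-layer factor Fezf2 (1.26) and Pou3f1 (1.06) were higher and Bhlhe22 (-1.28), Neurod1 (-0.94) and the upper-layer factor Cux2 (-0.62) lower, the last being -0.351 without library B. Neurod2 (-0.25) was called lower with both libraries and was -0.135 without library B, where the call was lost (adjusted p = 0.201).

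Inhibitors of the MAP kinase cascade were mostly higher: 12 of 16 members were called higher (7 by at least 2-fold) and 2 lower (1), with a median log2 fold change of 0.82. Dusp proteins remove phosphates from MAP kinases and Sprouty proteins restrain the pathway above them. Dusp14 had 186 and 295 normalised reads at KCl 6 h against 43.1, 54.2 and 69.7 in controls (2.08 ± 0.19 SE, adjusted p = 7.8e-09). All controls lay below both libraries. Dusp5 (1.69), Dusp1 (1.43), Dusp6 (1.13), Dusp4 (0.94), Spry4 (1.74) and Spry2 (1.01) were higher as well, and Dusp2 (-1.70) and Dusp7 (-0.50) lower, and Dusp7 was -0.312 without library B.

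The 3 RGK GTPases that were tested, of 4 listed, small proteins that bind calcium channel beta subunits and reduce calcium currents, were higher by at least 2-fold. Rem2 had 578 and 656 against 78.8, 109 and 147 (2.50 ± 0.21 SE, adjusted p = 1.6e-08), with all controls below. Rrad (1.64) and Gem (1.40) followed. Rrad was weakly expressed, and with 10 added its change was 0.783. Calcium channel subunits counted 5 higher and 9 lower of 21, median -0.069, with 5 lower without library B, and the largest change was a fall of Cacna1d, an L-type pore subunit, from 494, 603 and 640.0 in controls to 168 and 119 (-2.04 ± 0.13 SE, adjusted p = 6.2e-11). Cacna1c, the more abundant L-type subunit of cortex, was not called (0.016, adjusted p = 0.898). Of the R-, T- and P/Q-type pore subunits, Cacna1e (-0.76) and Cacna1i (-0.75) were lower and Cacna1a (0.051) was not called.

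Calcium and calmodulin signalling genes counted 12 higher and 7 lower of 25, median 0.087, with Rcan2 (0.88), Ncald (0.62) and Camk1g (0.60) highest and Ppp3cc (-1.07), a catalytic subunit of calcineurin, lowest. Camk2a (0.087) was not called. For cyclic AMP, 10 of 21 members were called higher (2 by at least 2-fold) and 3 lower (0), with a median log2 fold change of 0.11. The phosphodiesterases Pde4d (1.37) and Pde3a (1.06) and the calcium-activated cyclase Adcy8 (0.87) led, and Adcy2 (-0.75) was lowest. The RGS proteins, which shorten signalling by G proteins, included Rgs4 (2.56), Rgs10 (1.79) and Rgs2 (1.61) among 7 higher and Rgs11 (-2.07) among 5 lower of 15. Without library A, 4 were higher. Rgs4 had 2609 and 2272 normalised reads against 382, 409.6 and 458, without overlap.

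Genes of secreted peptides were among the strongest responders. Of neuropeptide precursors, 14 of 18 members were called higher (10 by at least 2-fold) and 1 lower (1), with a median log2 fold change of 1.09. Cartpt, the precursor of CART peptides, had 79.6 and 118 normalised reads against 1.20, 7.03 and 10.5 (3.93 ± 0.45 SE, adjusted p = 3.3e-07). Adcyap1, the precursor of PACAP, had 429 and 391 against 45.7, 51.6 and 72.1 (2.89 ± 0.24 SE, adjusted p = 2e-09). In both genes all 6 controls were lower than either KCl library. Tac1 (2.02), Pnoc (1.93), Sst (1.69), Npy (1.08), Penk (0.92) and Cck (0.71) were higher, as was the CRH-binding protein Crhbp (2.38). Grp (-1.06) was the single precursor called lower, and Nts (0.11), Pdyn (-0.17) and Nmb (-0.18) were not called. In granins and prohormone processing, 9 of 11 members were called higher (4 by at least 2-fold) and 1 lower (0), with a median log2 fold change of 0.53. Scg2, a granin with a full CRE in the promoter printed above, had 5865 and 4838 against 762, 887 and 1062 (2.57 ± 0.16 SE, adjusted p = 9.3e-09). Pam, which amidates peptide ends, was higher (1.44), as were Pcsk2 (0.53) and Cpe (0.48). Chga was called lower (-0.32), but had 1154 and 739 reads in A and B against 1025, 1145 and 1379 in controls, and without library B it was not called (-0.000402, adjusted p = 0.998).

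Neurotrophins and their receptors counted 5 higher and 0 lower of 7, median 0.53, with 1 lower without library A. Beside Bdnf, Ntf3 (0.59) and the sorting receptor Sort1 (0.55) were higher by less than 2-fold, and the BDNF receptor gene Ntrk2 was 0.37 higher. Without library B the call of Ntf3 was lost (0.436, adjusted p = 0.133). Of activins and related ligands, the receptor Acvr1c (1.88) was highest, and the inhibitors Inha (-1.22) and Fst (-1.23) were lowest. Fst was -0.817 without library A. Matrix proteins, pentraxins and protease inhibitors gave 16 higher and 4 lower of 25, median 0.43. Nptx2, a secreted pentraxin that gathers AMPA receptors, had 1185 and 916 against 176, 198 and 223 (2.39 ± 0.13 SE, adjusted p = 4.9e-12). Tissue plasminogen activator, Plat (0.74), was higher too. The hyalectans other than Acan went the other way, with Vcan (-0.52), Ncan (-0.37) and Bcan (-0.19) lower. Axon guidance genes were divided, at 15 higher and 12 lower of 42, median -0.026, with Sema3e (1.21) highest and the netrin receptor Dcc (-0.91) lowest.

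Receptor genes for GABA were called higher more often than all genes tested, and those for glutamate less often. Of glutamate receptor genes, 4 of 22 members were called higher (2 by at least 2-fold) and 9 lower (2), with a median log2 fold change of -0.17. Those called lower made up 40.9%, not far from the 33.1% of all genes, and those called higher 18.2% against 33.4%. The NMDA receptor subunit Grin1, present in every such receptor, had 2503 and 1839 normalised reads against 884, 988 and 1136 (1.11 ± 0.13 SE, adjusted p = 1.9e-06), with no control as high. Grin2a (0.76) was higher too. Grin2b was called lower (-0.19, adjusted p = 0.0949), but lost the call with no filter on low values (adjusted p = 0.116). The AMPA subunits Gria1 (-0.74) and Gria3 (-0.71) were lower and Gria2 (-0.013) was not called. Of the metabotropic receptors, Grm2 (1.33) was higher and Grm4 (-1.89), Grm7 (-0.96) and Grm5 (-0.61) lower. GABA receptor genes gave 9 higher and 1 lower of 14, median 0.30, led by Gabra4 (1.51), Gabra5 (1.20), Gabrd (0.96) and Gabrb1 (0.93), and Gabrg3 (-0.60) was the single member called lower (3 were without library A).

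Potassium channels were the largest channel family, and 31 of 70 members were called higher (12 by at least 2-fold) and 26 lower (7), with a median log2 fold change of 0.17. Kcna1, a low-threshold channel of axons, had 1174 and 1111 against 170.1, 193 and 209 (2.57 ± 0.10 SE, adjusted p = 1.3e-14). The inward rectifiers Kcnj4 (2.53), Kcnj3 (2.32) and Kcnj6 (2.17), the leak channel Kcnk9 (2.45) and the A-type channel Kcna4 (2.32) rose by similar amounts. Kcnj3 and Kcnj6 encode GIRK channels, which open under G protein-coupled receptors. The largest falls were Kcnu1 (-1.81), Kcnd1 (-1.44), Kcnab1 (-1.29), Kcnt1 (-1.17) and Kcnj12 (-1.15). Among sodium channel genes (3 higher and 4 lower of 9, median 0.076), Scn1a, whose pore is prominent in fast-spiking interneurons, was higher (1.68 ± 0.11 SE, adjusted p = 2.5e-11), Scn2a (0.076) was not called and Scn8a (-0.40) was lower.

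Pumps and cotransporters counted 11 higher and 7 lower of 21, median 0.22. The sodium pump subunit Atp1b1 (1.27) and the exchanger Slc24a4 (1.64) were higher by more than 2-fold. The glial pump subunit Atp1b2 (-0.96) and the calcium pump Atp2b3 (-1.01) were lower. The chloride exporter gene Slc12a5 was -0.53 and the importer Slc12a2 0.22.

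At the synapse, presynaptic genes counted 16 higher and 8 lower of 34, median 0.17. Sv2c (1.41), Stx1a (1.11), Unc13a (1.01), Syp (0.77) and Snap25 (0.76) were higher, and Syn3 (-1.44), Doc2b (-1.34) and Syn2 (-0.49) lower. Syn1 (-0.017) was not called. Postsynaptic scaffolds and adhesion genes counted 16 higher and 9 lower of 32, median 0.18 (3 lower without library B), with Homer1 (1.26) and Lrrtm1 (1.01) highest. Homer1 also encodes the short Homer1a form, which these gene totals cannot separate. The neuroligins split, since Nlgn2 (0.71), of inhibitory synapses, was higher and Nlgn3 (-1.17) and Nlgn1 (-0.86) lower. Clustered protocadherins counted 11 higher and 1 lower of 23, median 0.24, all rises being below 2-fold. Without library A, 7 were higher, and without library B, 0 were lower. Their exons are near copies, so reads could be shared between members. For tubulins, neurofilaments and microtubule proteins the count was 8 higher and 9 lower of 26, median -0.079, with Tuba4a (1.10) and Nefl (0.92) higher and Tubb6 (-1.22), Nefh (-0.86) and Tubb3 (-0.54) lower. Nefm was 0.64 with both libraries but 0.213 without library A and 1.06 without library B.

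**Figure D2:**
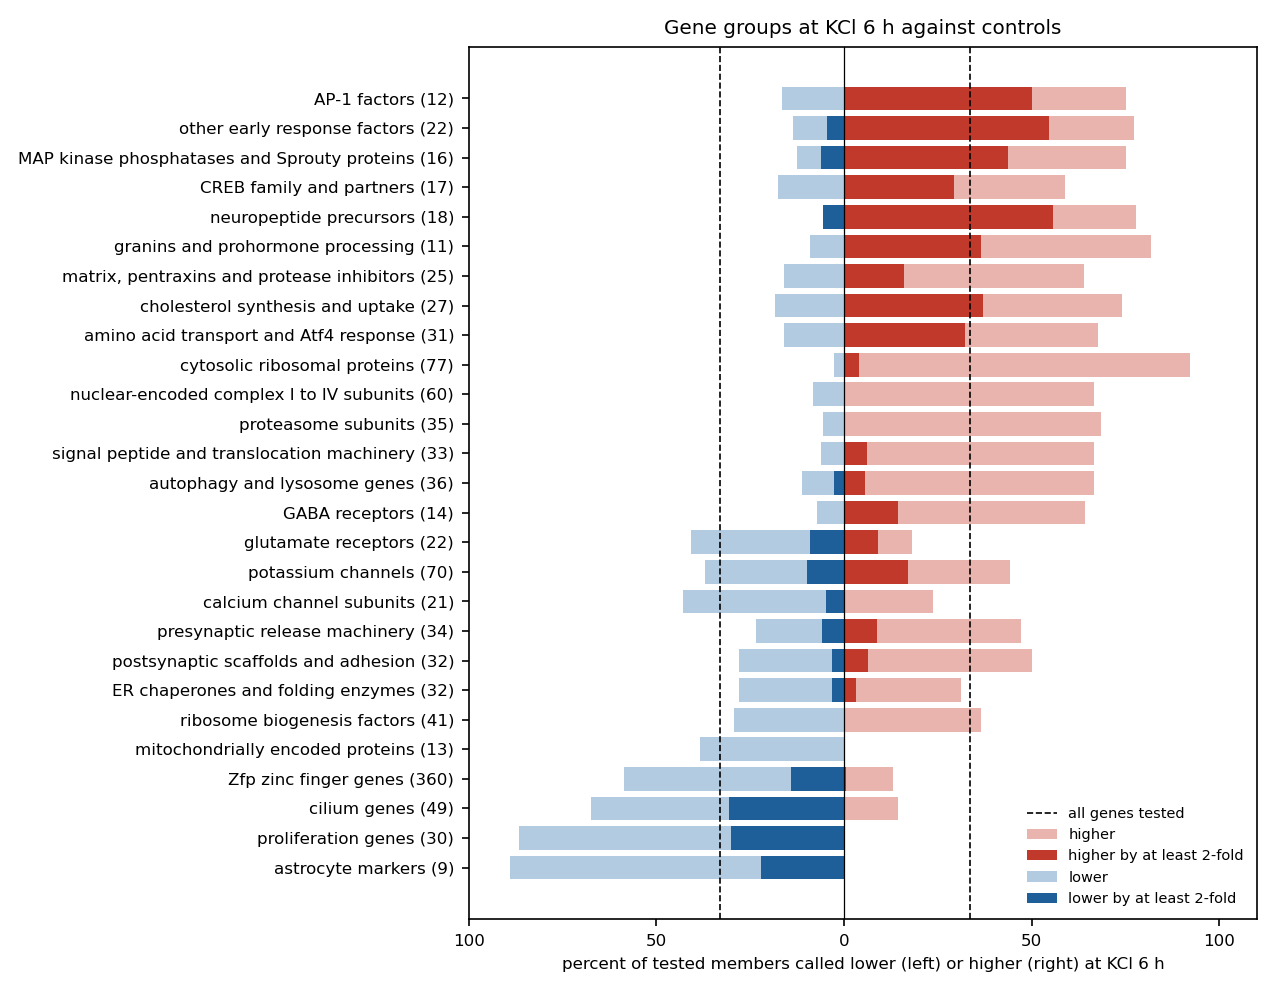
Percent of tested members called lower (bars to the left) or higher (bars to the right) at KCl 6 h for 27 gene groups, with the number tested in brackets, dark parts for changes of at least 2-fold and dashed lines at the percentages of all genes tested (33.1 and 33.4). Cytosolic ribosomal proteins, granins with prohormone processing, neuropeptide precursors and early factors reach furthest right, and Zfp genes, cilium genes, proliferation genes and astrocyte markers furthest left.

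Genes of cholesterol synthesis and uptake were higher as a group: 20 of 27 members were called higher (10 by at least 2-fold) and 5 lower (0), with a median log2 fold change of 0.81. Most of these genes are known targets of the SREBP2 factor. Msmo1, a late enzyme of the pathway, had 5624 and 7429.7 normalised reads against 1944, 2071 and 2226 (1.64 ± 0.089 SE, adjusted p = 4.2e-12). The late enzymes Sc5d (1.58) and Cyp51 (1.54) were higher by similar amounts, and Hmgcs1, an early enzyme, was 0.80 higher. The exporters Abca1 (-0.85) and Abcg1 (-0.52), which are targets of LXR, were lower. The Srebf2 gene was 0.67 higher, and Srebf1 (0.0086) was not called.

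For amino acid transport and the targets of the stress factor Atf4, 21 of 31 members were called higher (10 by at least 2-fold) and 5 lower (0), with a median log2 fold change of 0.50. Without KCl library B, or without either of 2 control libraries (B of 1 h and B of 6 h), 3 were lower. Atf4 itself was higher (1.43). Slc38a2, the SNAT2 amino acid transporter, had 8078 and 9732 against 2227, 2335 and 2524 (1.91 ± 0.074 SE, adjusted p = 1.4e-14). The cationic transporters Slc7a3 (1.80) and Slc7a1 (1.46), the synthetase Asns (1.25) and the folate enzyme Mthfd2 (1.33) were higher. Ddit3 (-0.18) and Trib3 (0.43), which mark stronger stress of the endoplasmic reticulum, were not called, and Pycr1 (-0.85) was lower. Aminoacyl-tRNA synthetases counted 12 higher and 6 lower of 19, median 0.20, from Cars (1.50) to Dars (-1.79).

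Glucose handling showed rises of both transporters, Slc2a1 (1.49) and Slc2a3 (1.45), and of Aldoa (0.81), Gapdh (0.66), Pgk1 (0.48) and Ldha (0.52), with 14 higher and 5 lower of 27, median 0.26 for the whole list. Gapdh and several ribosomal protein genes have many processed copies in the genome, so reads could be shared with them. The hypoxia targets Pdk1 (-0.88) and Slc16a3 (-1.72) were lower and Ankrd37 (1.33) higher. Slc16a3 and Ankrd37 were weakly expressed, and with 10 added their changes were -0.813 and 0.784. Without library B, 3 of the glucose and hypoxia list were lower. Respiratory chain subunits encoded in the nucleus gave 40 higher and 5 lower of 60, median 0.40, all rises being below 2-fold. The subunits encoded in mitochondrial DNA gave 0 higher and 5 lower of 13, median -0.18, with mt-Nd5 (-0.67) lowest. Without library A, 1 was higher and 2 were lower, and without library B 2 were lower. Of mitochondrial carriers, Slc25a48 (1.94) and the phosphate carrier Slc25a3 (0.94) were higher and Slc25a35 (-1.18) and Slc25a40 (-1.13) lower, among 13 higher and 12 lower of 40, median 0.007. With 10 added, Slc25a48 was 1.24.

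Most cytosolic ribosomal protein genes were higher, at 71 higher and 2 lower of 77, median 0.59, with 4 lower without library B. The rises were small and larger in library B, with a median of 0.73 against 0.44 in library A. Rps28 (1.08), Rpl41 (1.07) and Rpl13a (1.06) were highest, and Rpl3 (-0.38) and Rpl22 (-0.31) were lower. Factors that build ribosomes gave 15 higher and 12 lower of 41, median 0.073, and without library B only 6 were lower, with Fbl (0.73) and Polr1c (0.74) higher and Ubtf (-0.62), Polr1b (-0.43) and Ncl (-0.29) lower. Ncl was -0.433 without library A and -0.138 without library B.

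Proteasome subunits gave 24 higher and 2 lower of 35, median 0.25, and autophagy and lysosome genes 24 higher and 4 lower of 36, median 0.31, led by the lysosomal enzymes Gla (1.50) and Ctsl (0.98) and by Map1lc3a (1.03). Along the secretory pathway, the machinery that moves new proteins into the endoplasmic reticulum gave 22 higher and 2 lower of 33, median 0.27, with Dad1 (1.18), Sec61b (1.01) and Ssr2 (0.64) highest and 4 lower without library B. Its folding chaperones gave 10 higher and 9 lower of 32, median -0.045. Among these Hspa5 (-0.11), the main chaperone of the compartment, was not called, Herpud1 (1.55) was higher and Calr (-0.56) and Pdia4 (-0.50) lower. Vesicle coats were divided (10 higher and 9 lower of 35, median 0.005). Cytosolic chaperones gave 7 higher and 4 lower of 21, median 0.027, with 2 lower without library B. Hspb8 (1.52) was the only member of that list at least 2-fold higher, and the heat shock genes Hspa1a (-0.67) and Hspa1b (-0.62), near copies of each other, were lower in a way that rested on library B, without which neither was called (-0.174 and -0.247).

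Among regulators of chromatin and RNA, the class IIa deacetylases Hdac9 (2.56), Hdac5 (1.38) and Hdac4 (0.64) were higher and Hdac10 (-1.32) and Sirt1 (-0.57) lower, with 10 higher and 7 lower of 26, median 0.064 for deacetylases and acetyltransferases. Without library B, 3 of that list were lower. SR proteins and splicing kinases gave 16 higher and 8 lower of 33, median 0.087 (5 lower without library A), with Mbnl2 (1.03) highest and the neuronal splicing factor Rbfox1 (-0.57) lowest. Insulin pathway genes gave 11 higher and 6 lower of 29, median 0.078, in which Foxo3 (-0.91) and Foxo1 (-0.63) were lower and Foxo4 (0.68) higher. Of p53 targets and apoptosis genes (10 higher and 12 lower of 29, median -0.012), the cell cycle inhibitor Cdkn1a (1.19) was higher and the death genes Hrk (-1.23) and Casp9 (-1.11) lower.

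The largest falls were in genes with less familiar roles in neurons. Zmat1, a zinc finger gene (chrX:134971372-135009209), had 15.7 and 18.5 normalised reads in KCl libraries A and B against 210.3, 231 and 245 in controls. Controls were tightly grouped and far above both KCl libraries (-3.66 ± 0.13 SE, adjusted p = 6.3e-15). Senp8, a protease that removes NEDD8, had 21.6 and 23.2 against 209, 227 and 249 (-3.29 ± 0.13 SE, adjusted p = 1.3e-14). Txnip, an alpha-arrestin that lowers glucose uptake and binds thioredoxin, had 60 and 113 against 519, 623 and 663 (-2.88 ± 0.16 SE, adjusted p = 1.9e-11), with all controls above both KCl libraries. Its relatives Arrdc3 (-2.43), Arrdc4 (-1.34) and Arrdc2 (-0.62) were lower too, while Arrdc1 (0.39) and the antiproliferative genes Tob2 (0.82) and Btg3 (0.67) were higher. Alpha-arrestins and Btg/Tob genes counted 5 higher and 4 lower of 10, median 0.097, and fewer were higher without library B.

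Rsph10b and Iqcg, both genes of motile cilia and flagella, had 7.87 and 3.47 against 53.7, 64.5 and 78.5 (-3.38) and 6.88 and 6.95 against 51.6, 69.1 and 93.7 (-3.11). Crip3, a LIM domain gene, had 5.90 and 3.47 against 54.8, 62.8 and 90.3 (-3.58), and with 10 added the change was -2.37. In these 3 genes no control came near the KCl libraries. Fam107a had 5.90 and 26.6 against 70.9, 105 and 172 (-2.91 ± 0.45 SE, adjusted p = 6.6e-05), and the fall rested in large part on library A, without which it was -1.91. The remaining leading falls were Tmem260 (-2.80), Zfp493 (-2.74), Sspn, which encodes sarcospan (-2.62), the splicing factor Rbm11 (-2.62) and the chemokine Ccl28 (-2.60).

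Zinc finger genes, cilium genes and proliferation genes were called lower more often than higher. Of the 360 tested genes with Zfp names, many of which encode KRAB repressors, 211 were called lower (51 by at least 2-fold) and 47 higher (2), with a median log2 fold change of -0.35. Against this, 33.1% of all genes were lower. Zfp457 (-3.14), Zfp493 and Zfp663 (-2.53) were lowest. Zfp457 was -1.86 without library B and -1.33 with 10 added. Zfp143 (1.58), a factor of housekeeping promoters, had the largest rise, and the other member higher by 2-fold, Zfp804b (1.02), was not called without library A (0.472, adjusted p = 0.365). Many Zfp genes are near copies in clusters, so counts of single members are uncertain where reads could be shared.

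Of genes for the primary cilium, the sensory antenna of neurons, 7 of 49 members were called higher (0 by at least 2-fold) and 33 lower (15), with a median log2 fold change of -0.49. Falls ran through its parts. Mks1 of the transition zone had 23.6 and 40.5 normalised reads against 114, 126 and 135 (-1.98 ± 0.18 SE, adjusted p = 4.4e-09). Wdr19 and Ift140 of the retrograde transport complex were -1.81 and -1.74, and Bbs2 and Bbs7 of the BBSome -1.78 and -1.74. In Mks1 both KCl libraries lay below every control. Ift20 (0.67) and Nphp4 (0.81) were higher, Nphp4 by 0.536 without library A.

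Of 30 proliferation genes, 0 were called higher and 26 lower, 9 of these by at least 2-fold, with a median of -0.59. Without library A, 17 were called lower. The helicase subunits Mcm6 (-1.48) and Mcm2 (-1.21) and the chromatin remodeller Hells (-1.22) were lowest, and Top2a, made in S and G2 phases, had 901 and 986 against 1472, 1978 and 2297 (-1.02 ± 0.14 SE, adjusted p = 1e-05). Both KCl libraries were below all controls, and Top2a was measured in each of the 8 libraries. The mitotic genes Aurka (-0.043), Birc5 (-0.14), Ccnb1 (-0.24) and Cdk1 (-0.27) were not called. In bulk cultures, fewer cells of a type and less RNA per cell cannot be told apart.

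Among the marker lists of non-neuronal cell types, that of astrocytes was called lower most often. Astrocyte markers gave 8 called lower of 9 and 0 higher, with Gfap (-1.22) and Aqp4 (-1.17) lowest, Gja1 (-0.38) not called, and a summed level of 0.110% and 0.124% of reads in libraries A and B and 0.143 to 0.190% in the controls. Radial glia markers gave 1 higher and 4 lower of 10, median -0.057 (2 higher without library B), with 0.202% and 0.201% of reads in libraries A and B and 0.215 to 0.259% in the controls. Proliferation genes summed to 0.0742% and 0.0868% of reads in libraries A and B and 0.120 to 0.180% in the controls. In these 3 sums the groups did not overlap. The part of glia or dividing cells in the results above was not tested.

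Microglia markers summed to 0.00167% and 0.00232% of reads in libraries A and B and 0.00154 to 0.00227% in the controls, near the limit of detection, and endothelial and mural markers to 0.0208% and 0.0257% of reads in libraries A and B and 0.0243 to 0.0400% in the controls. Of microglia markers C1qc (0.80) was called higher and Cx3cr1 (-2.11) lower of 8 (3 higher without KCl library A and 2 without control 10 h library A or control 1 h library B, and Cx3cr1 at -1.29 with 10 added), and of endothelial and mural markers Col1a1 (-0.32) lower of 7 (2 without library B). Oligodendrocyte lineage markers gave 2 higher and 5 lower of 9, median -0.21, with Olig1 (0.57) and Mbp (0.49) higher and Mog (-1.72) lower, and 0.0580% and 0.0532% of reads in libraries A and B and 0.0523 to 0.0575% in the controls. Without library B, 2 of these markers were lower.

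The cultures expressed neuronal markers in every library, as their labels say. Pan-neuronal markers gave 5 higher and 2 lower of 12, median 0.065, with 0.580% and 0.496% of reads in libraries A and B and 0.572 to 0.625% in the controls, and excitatory markers 6 higher and 1 lower of 8, median 0.30, with 0.0982% and 0.0916% of reads in libraries A and B and 0.0853 to 0.0929% in the controls. Of the pan-neuronal markers 1 was lower without control 10 h library B or control 6 h library A, and of the excitatory markers 0 without KCl library B and 2 without control 10 h library A. Inhibitory neuron markers gave 8 higher and 2 lower of 10, median 0.51, with 0.179% and 0.175% of reads in libraries A and B and 0.117 to 0.139% in the controls, without overlap. That list holds Sst (1.69) and Npy (1.08), which are also among the neuropeptides above, and the GABA genes Gad1 (0.93), Gad2 (0.42) and Slc32a1 (1.05) were higher too, whereas Lhx6 (-0.44) and Dlx1 (-0.43) were lower. Without library B, Lhx6 was -0.235 and Dlx1 -0.259.

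Cytosolic ribosomal proteins took 0.707% and 0.865% of reads in libraries A and B and 0.588 to 0.649% in the controls, and mitochondrially encoded proteins 3.00% and 3.10% of reads in libraries A and B and 3.32 to 4.14% in the controls. The 100 highest genes took 14.6% and 17.8% of reads in libraries A and B and 14.2 to 15.3% in the controls. Library B thus gave more of its reads to few genes than any other of these 8 libraries, and its ribosomal share was higher than that of library A. Exact two-sided permutation tests of 2 against 6 libraries gave p = 0.0714 for the mitochondrial, ribosomal, proliferation, inhibitory, astrocyte and radial glia shares (0.143 after adjustment over 12 shares), which is the smallest p this design allows.

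**Figure D3:**
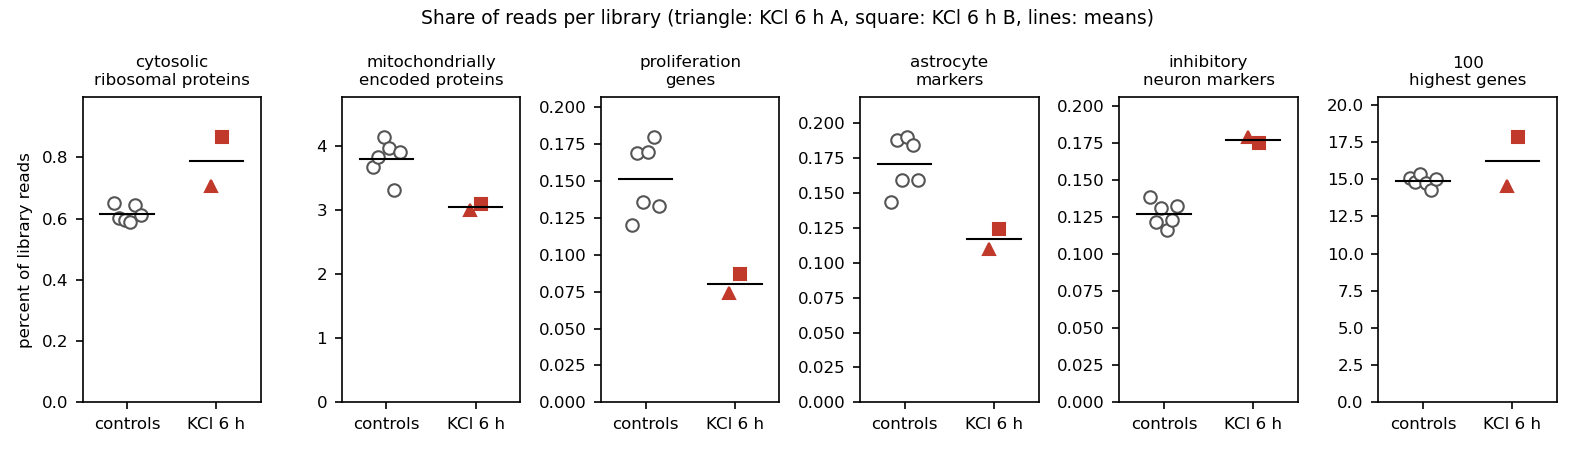
Percent of library reads (linear axes from 0) taken by 6 sets of genes in the 6 controls (circles) and KCl 6 h libraries A (triangle) and B (square), with lines at group means. Ribosomal protein and inhibitory marker shares lie above all controls and mitochondrial, proliferation and astrocyte shares below them, while the share of the 100 highest genes is above controls in library B alone.

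Against BDNF at the same time, 4501 genes (27.8%) were higher at KCl 6 h and 4792 (29.6%) lower, in a direct contrast without the controls. Fosb had 344 and 360.0 normalised reads at KCl 6 h and 6.31 and 7.32 at BDNF 6 h (5.50 ± 0.27 SE, adjusted p = 9.9e-13). Npas4 had 1908 and 1735 with KCl and 64 and 65 with BDNF (4.80 ± 0.34 SE, adjusted p = 8.3e-08). The BDNF libraries stood within the range of the controls for both genes. Nr4a1 (4.65), Col10a1 (4.59), Adcyap1 (4.39) and Pcsk1 (4.12) were the other leading genes higher with KCl, Col10a1 by 2.52 with 10 added. Bdnf itself had 97.3 and 121 at BDNF 6 h (3.97).

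Higher with BDNF were Egr2, with 477 and 408 against 29.5 and 25.5 at KCl 6 h (-3.96 ± 0.22 SE, adjusted p = 5.6e-12), the peptide galanin, Gal, with 114 and 113 against 3.93 and 2.32, and its receptor Galr1, with 88.3 and 88.7 against 5.90 and 3.47. The interferon-inducible genes Ifi209 (-5.59) and Ifi203 (-4.81) were lower with KCl than with BDNF. At KCl 6 h Ifi209 had 0 and 2.32 reads and Ifi203 had 0.983 and 2.32, and with 10 added the differences were -3.12 and -2.80. Controls were low as well, at 0 to 2.94 for Ifi209, 3.11 to 5.25 for Ifi203, 0 to 1.96 for Gal and 0 to 4.57 for Galr1. Krt6a, a keratin, had 68.5 and 77.8 with BDNF and was at 0 in both KCl 6 h libraries and all controls, so no fold is given. In these 6 genes both KCl 6 h libraries were far below both BDNF libraries, and the lack of overlap was part of the rule that named them. All but Egr2 had fewer than 10 reads in every control and KCl library. These genes passed the filter of a mean of at least 10 only through BDNF libraries, so their difference is partly set by how genes were picked.

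Some gene groups differed in direction in that contrast. Of ribosome biogenesis factors, 4 were higher and 27 lower at KCl 6 h (median difference -0.43), whereas of cytosolic ribosomal proteins 58 were higher and 2 lower at KCl 6 h (median difference 0.38). Of ER chaperones and folding enzymes, 4 were higher and 19 lower at KCl 6 h (median difference -0.28), and of MAP kinase phosphatases and Sprouty proteins, 5 were higher and 9 lower at KCl 6 h (median difference -0.48). Of AP-1 factors, 10 were higher and 2 lower at KCl 6 h (median difference 0.94), and of clustered protocadherins, 16 were higher and 0 lower at KCl 6 h (median difference 0.43). Zfp genes were lower with KCl in 153 and higher in 61 of 360. Vgf (-1.03), unlike Pcsk1, was lower with KCl than with BDNF. Neuropeptide precursors were even in this contrast, as 5 were higher and 5 lower at KCl 6 h (median difference 0.26).

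Against KCl at 1 h, 5006 genes (30.9%) were higher at 6 h and 4650 (28.7%) lower. Early factors were past their 1 h level. Fos had 5742 and 5274 normalised reads at 1 h and 1727 and 1809 at 6 h (-1.64 ± 0.18 SE, adjusted p = 2.6e-07), and Fosb had 5421 and 6088 at 1 h and 344 and 360.0 at 6 h (-4.02 ± 0.27 SE, adjusted p = 1e-10). The 6 h values were lower in both libraries but still far above controls. Nr4a1 was -2.06 and Egr2 -3.02. Of AP-1 factors, 1 was higher and 7 lower at KCl 6 h (median difference -0.87), and of other early response factors, 4 were higher and 14 lower at KCl 6 h (median difference -0.66).

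Late genes went the other way. Acan had 27.2 and 26.7 at 1 h and 470.0 and 258 at 6 h (3.64 ± 0.35 SE, adjusted p = 5.2e-08). Hcrtr2, an orexin receptor, had 13.6 and 16 at 1 h and 202 and 150.5 at 6 h (3.47 ± 0.27 SE, adjusted p = 8.8e-10). Crh had 13.6 and 0 at 1 h and 97.3 and 64.8 at 6 h (4.40 ± 0.97 SE, adjusted p = 0.00157). The 1 h libraries disagreed for Crh, and without library B of 1 h the difference was 2.46. C2cd4a (5.18) was higher at 6 h as well, from 0 and 1.07 at 1 h. With 10 added, the differences of Crh and C2cd4a were 2.54 and 2.54. In 2 other leading genes the 1 h values were below all controls. Spaca6, a sperm fusion gene, had 35.8 and 35.3 at 1 h, 620.4 and 555 at 6 h and 338, 353 and 372 in controls. Gapdhs, a sperm glycolysis gene, had 7.41 and 6.42 at 1 h, 77.7 and 84.5 at 6 h and 41.7, 52.8 and 55.8 in controls. Of Zfp genes, 226 were higher and 51 lower at KCl 6 h (median difference 0.53). Of neuropeptide precursors, 11 were higher and 2 lower at KCl 6 h (median difference 0.71), and of proliferation genes, 0 were higher and 23 lower at KCl 6 h (median difference -0.76).

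Ampd1, an AMP deaminase, was at 85.2 and 114 at 1 h and 4.92 and 2.32 at 6 h. Aoc3, an amine oxidase, went from 164 and 165 to 4.92 and 11.6, and Hhatl from 139.5 and 174 to 9.83 and 10.4. The germ cell factor Zglp1 went from 91.4 and 98.4 to 2.95 and 4.63, and the secretory cell factor Bhlha15 from 91.4 and 207 to 3.93 and 12.7. All 5 were far lower at 6 h than at 1 h, with few reads left, and they were named for a large difference without overlap. Their high 1 h levels also counted in the filter of a mean of at least 10 that let them be tested.

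Against KCl at 10 h, fewer genes differed, with 1566 (9.66%) higher at 6 h and 2085 (12.9%) lower. These counts rest strongly on single libraries. Without library A of KCl 10 h they were 501 and 677, and without library B of KCl 6 h 825 and 1135. Fosb had 75.8 and 94.8 at 10 h (2.04 ± 0.27 SE, adjusted p = 5.4e-05), below its 6 h values, and Fos was 0.86 higher at 6 h. Npc1l1, a sterol transporter, had 115 and 135 at 6 h and 11 and 42.5 at 10 h (2.46 ± 0.51 SE, adjusted p = 0.00306), but was not called without library A of KCl 10 h (adjusted p = 0.103). Ttc16 (2.05), Crabp2 (1.89), which carries retinoic acid, and the dynein gene Dnah10 (1.59) were higher at 6 h too. Fgd5 (1.61) was not called without library A of KCl 10 h (adjusted p = 0.207).

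Lower at 6 h than at 10 h were several of the leading falls. Zmat1 had 85.6 and 56.6 at 10 h against 15.7 and 18.5 at 6 h (-1.97 ± 0.16 SE, adjusted p = 7.8e-07), and Senp8 68.4 and 52.3 against 21.6 and 23.2 (-1.38 ± 0.16 SE, adjusted p = 1.4e-05). Both stayed below controls at 10 h. Mettl27 (-1.48), Ubxn11 (-1.42) and St6galnac3 (-1.38) were lower at 6 h as well. Fam198b (-1.49) lost its call whenever 1 of the 4 libraries was left out. Of cilium genes, 1 was higher and 22 lower at KCl 6 h (median difference -0.32), and of glutamate receptors, 0 were higher and 8 lower at KCl 6 h (median difference -0.25). Cytosolic ribosomal proteins were higher at 6 h in 25 and lower in 0. Of neuropeptide precursors, 3 were higher and 0 lower at KCl 6 h (median difference 0.0094), and of other early response factors, 9 were higher and 0 lower at KCl 6 h (median difference 0.43).

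**Figure D4:**
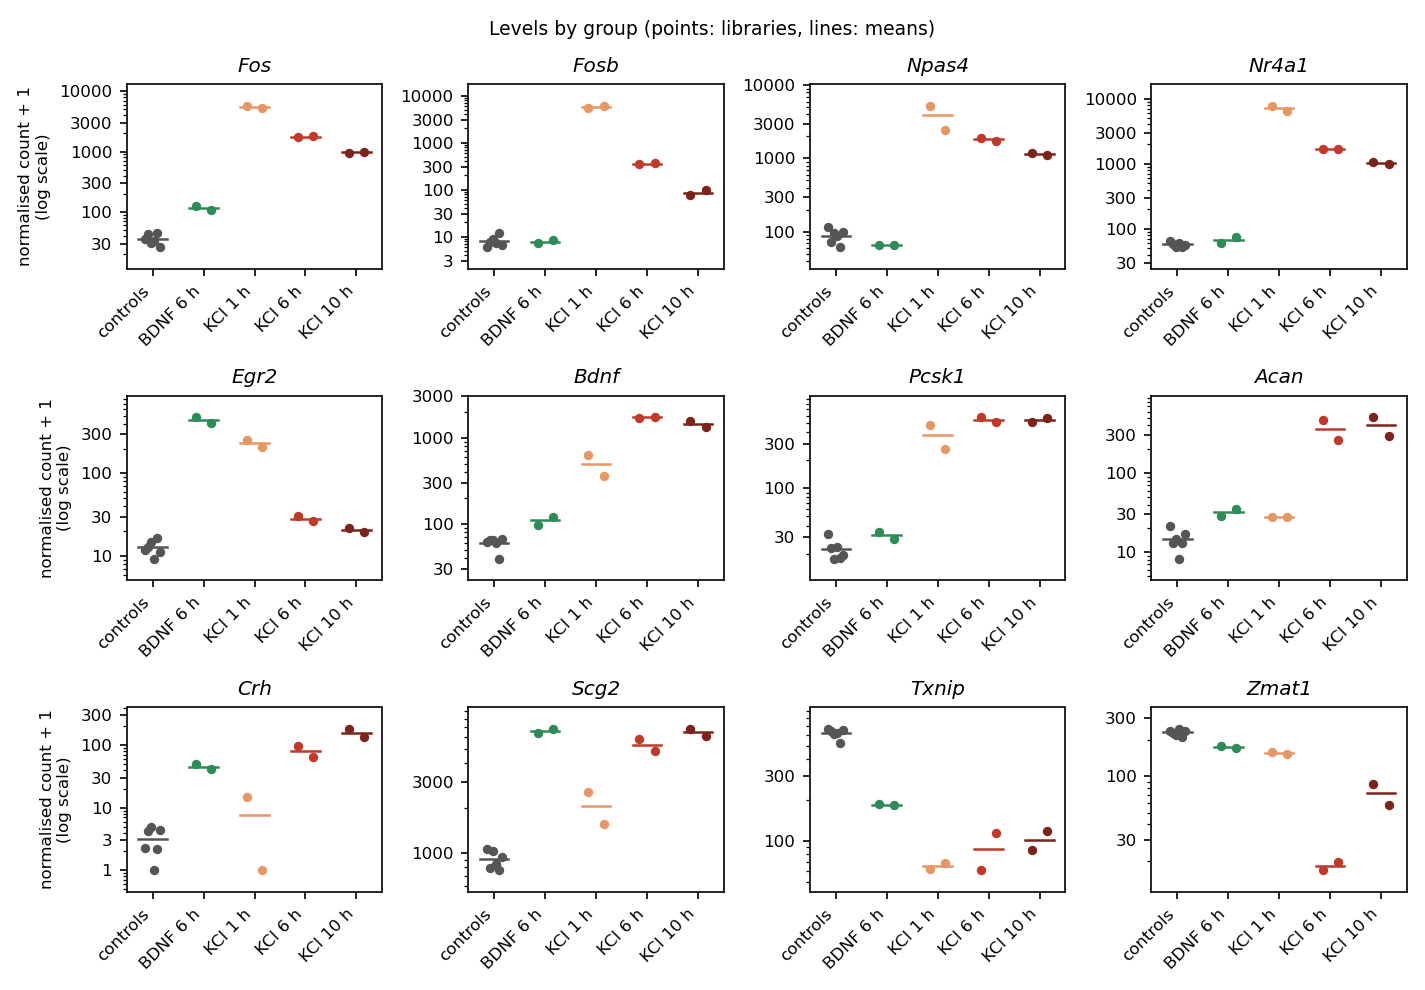
Normalised read count + 1 (log axes) of 12 genes in controls (n = 6), BDNF 6 h, and KCl 1, 6 and 10 h (n = 2 each), with 1 point per library and lines at means. Fos, Fosb, Npas4 and Nr4a1 are highest at KCl 1 h and Egr2 at BDNF 6 h. Acan has 27.2 and 26.7 reads at KCl 1 h, above its controls (7.26 to 20.4), and between 258 and 507 reads at 6 and 10 h.

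Open chromatin at the promoters of these genes was read from ATAC-seq of the same stimulus and times, which the paper describes as done on the same samples. Libraries of KCl 6 h held 1.24 and 4.21 M reads in peaks and controls 2.43 to 4.24 M. Of 13264 promoter peaks (from 1000 bases before to 100 after a transcription start), edgeR called 290 gained (2.19%) and 402 closing (3.03%). That split rests on the scaling, since 164 gained and 1484 closed with TMM in place of LOESS scaling, and leaving out 1 KCl column gave 149 and 199 or 85 and 134. Of the genes at least 2-fold higher in RNA, 515 had a promoter peak, and 33 of these (6.41%) had one that gained and 19 (3.69%) one that closed. The same figures over all genes with a promoter peak were 2.50% and 3.63%, and over the 1065 genes at least 2-fold lower 2.44% and 3.19%. These shares were made with LOESS scaling alone, and not with TMM.

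Nr4a1, whose promoter is printed above, had a gained peak at chr15:101266257-101267037. It held 90.4 and 113 normalised reads in the KCl columns against 37.1, 46.8 and 62.2 as lowest, median and highest of controls, without overlap. Its log2 fold change was 1.01 ± 0.22 (SE, edgeR adjusted p = 0.00136). The promoter peak of Fos held 100.5 and 130.0 reads against 90.0, 103 and 134, and was not called (0.058, adjusted p = 0.92). KCl columns lay within the controls there. Promoter peaks of Fosb, Bdnf, Pcsk1, Npas4, Egr4, Vgf, Acan and Scg2 were not called either. For 1 of the Npas4 peaks that rests on the scaling, since it held 20.2 and 30.2 reads against 6.08, 10.7 and 18.1, and with TMM it was called (adjusted p = 0.0613). Beside another Nr4a1 peak, gains were called at Rgs4 (0.65, adjusted p = 0.0242) and Maff (0.50, adjusted p = 0.0623, and 0.126 with TMM). Fam107a had a peak that closed (-1.49, adjusted p = 0.0542). That other Nr4a1 peak, Maff and Fam107a were not called when either KCl column was left out, and Rgs4 was not called without the first of them.

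In structure, protein-coding genes at least 2-fold higher had a median span of 20.6 kb and 6 exons, against 25.6 kb and 8 exons for all protein-coding genes tested, and those at least 2-fold lower had 27.4 kb and 8 exons. GC content of the transcripts was 51.8% in the higher genes, 49.3% in the lower genes and 49.8% over all. Promoter sequences were found for 78.1%, 79.2% and 79.7% of these sets, under the 80% needed, so motif shares of the sets were not compared.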

How the data were processed

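RNA was sequenced from cultures stimulated as described above. Mapping by the authors used TopHat2, mm10 and GENCODE M16, and the counts per gene were divided by DESeq2 size factors. A counter or its strand setting is not given in the sources used here. RNA values as deposited are therefore a signal that is never negative, from which whole reads were recovered (100% within 0.01). For ATAC the authors aligned with Bowtie2, called peaks with MACS2 and deposited raw counts per peak. Their deposited tables of genes and peaks hold log2 fold changes, scores and p-values of their own comparisons and were not used. Symbols came from GENCODE M21 for 26162 of 26709 genes, and promoters and motif shares from RefSeq (GRCm38.p6).

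RNA was tested with limma 3.58.1 on log2(value + 1) over all 18 libraries with 7 levels (trend and robust options, genes with a mean of at least 10), and ATAC with edgeR 4.0.16 (quasi-likelihood, LOESS offsets, peaks with a mean of at least 10). The design had planned limma for ATAC in case the table held normalised values. Tests were two-sided with Benjamini-Hochberg adjustment over all features. DESeq2 1.42.0 and edgeR on the recovered reads were alternatives. Both tests were tried on simulated data. The study calls the samples of a group biological replicates without saying whether their neurons came from separate dissections, so p-values measure the spread between these libraries. Depth limits genes near the minimum, and intervals beyond the SE were not made.

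Genes named were the 12 largest rises and falls among called protein-coding genes with a mean of at least 50 in the higher group and no overlap. The 6 largest each way per direct comparison were named under the same filters. In each list its key members and the 3 largest changes each way were named. Others were named after their values were seen, and some genes that the rule names are not reported here. The comparison, its members and the gene lists were chosen with earlier results of these data known.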

Additional observations from a re-analysis of the deposited data

Results flagged for a closer look

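Among the 6 controls, 1 library lay apart from the others in 9 of the 369 genes and sums examined by Dixon's test, where chance gives about 1 in 20. Control 10 h library A was that library for Bdnf (38.5 normalised reads, control median 62.5), Txnip (519), Klf10 (193), Grm7 (357), Copa (2281) and Tra2b (1668). For Dcc (253) and Sv2c (90.6) it was control 1 h library A, and for Crem (144) control 1 h library B. All 9 genes were called at KCl 6 h with every control in the fit.

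Direct contrasts found genes whose response at KCl 6 h differed from that in another group, namely 9293 genes against BDNF 6 h, 9656 against KCl 1 h and 3651 against KCl 10 h.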

How the results depend on the processing

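Counts of genes called against controls kept within 1.5 times of 5417 and 5362 under each of the alternatives run. Those at least 2-fold higher (737) were 1557 with no filter and 467 with a mean of at least 50, and those at least 2-fold lower (1365) were 893 with 10 added before the logarithm and 853 with a mean of at least 50. At an adjusted p below 0.01, 2994 genes were higher than with BDNF at 6 h, and 347 were higher and 680 lower than at KCl 10 h. Leaving out 1 library gave 501 to 2245 higher and 677 to 2799 lower than at KCl 10 h. Of 114 counts of list members called, 21 fell by over 1.5 times at an adjusted p below 0.01. Most of those moved by leaving out 1 library are given with the lists. With a mean of at least 50, 9 neuropeptide precursors were higher. Leaving out 1 library gave 17 to 30 proliferation genes lower. The difference in read share from controls ranged over such omissions from 0.0926 to 0.251 percentage points for ribosomal proteins, -0.108 to -0.0242 for pan-neuronal markers, -0.000767 to 0.00403 for oligodendrocyte markers, -0.000211 to 0.00044 for microglia markers and -0.304 to 2.95 for the 100 highest genes. Over all genes called higher, the median span was 22.6 kb and the median exon number 7.

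Promoter peaks gained and closing (290 and 402) were 61 and 83 at an adjusted p below 0.01, 164 and 1484 with TMM scaling, 130 and 1905 with DESeq2 size factors, 98 and 1645 with DESeq2, and 85 to 294 and 134 to 405 without 1 library, so the order of gains and closings rests on the scaling of the ATAC counts. The cause of these differences was not tested.

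Groups share the letters A and B. Deviations of same-lettered libraries correlated from -0.315 to 0.418 over pairs of groups, and for KCl 6 h from -0.185 (controls of 10 h) to 0.228 (controls of 6 h), so not every pair passed 0.1 and the letters were not taken to pair the libraries. Controls of 10 h correlated negatively with every other group, and a pairing with their letters exchanged was not tested. A fit with the letter as a replicate block called 5488 genes higher and 5457 lower. No named gene that was called reversed its direction under the alternatives run. Of 6559 alternatives for 366 named genes, 86 lost the call and 11 gained it, and of 413 for direct comparisons 7 lost it.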
